A study of Mus musculus with 9 samples.

Results

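The interferon-response gene families described here are the OAS, GBP, IFIT, IFITM, IRF, STAT, ISG, IRG and Mx genes, together with Rsad2, Usp18, Socs1, Ifih1 and Ddx58. They were chosen by gene symbol, with earlier results of these data known. They comprise 56 of the 35552 probe sets on the array and 53 of the 19593 genes with a symbol. By family these were 11 OAS, 9 IRF, 7 STAT, 5 GBP, 5 IFITM, 4 ISG, 3 IFIT and 2 IRG genes and 7 others. Matching by symbol also took in a few genes that are not known as interferon targets, such as Irf2bp1, a corepressor. Ifitm1 had 2 probe sets and Ifitm2 had 3, and 1 probe set per gene entered the tests.

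RNA was measured in medullary thymic epithelial cells bearing CD80, the mature epithelial cells of the thymic medulla that display self-antigens to developing T cells. All mice were female, of the Balb/c strain and 4 to 6 weeks old. The groups were C2TA knockdown (replicates 4, 5 and 6), C2TA knockout (replicates 7, 8 and 9) and C2TA wild type (replicates 1, 2 and 3), with 3 arrays each. C2TA is the protein made from Ciita, a transactivator without which MHC class II genes stay silent, and the title of the study names tolerance of CD4 T cells as its question. The labels name neither the silencing construct nor the promoter that drives it, do not say which part of the gene the knockout lacks, and call the samples biological replicates without giving the number of mice behind each. P-values therefore measure the spread between these samples.

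Interferons act on cells through surface receptors whose Janus kinases phosphorylate STAT proteins. Type I and type III interferons act through a complex with STAT2 and IRF9 that binds the interferon-stimulated response element (ISRE), and type II interferon acts through the gamma-activated site (GAS). The induced genes include OAS enzymes that sense double-stranded RNA, IFIT and IFITM proteins that block viral RNA and viral entry, and GBP and IRG GTPases that attack the vacuoles of intracellular pathogens. In the thymic medulla, epithelial cells are known to express interferons and their target genes without infection.

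All values are log2 levels after RMA normalization, and all differences are log2 differences of group means from limma, fitted over all 9 arrays with Benjamini-Hochberg adjustment over 19593 genes. Ciita had levels of 5.44, 4.94 and 5.5 on the knockdown arrays, 5.96, 6.16 and 6.11 on the knockout arrays and 6.37, 6.55 and 6.28 on the wild-type arrays. The 3 groups did not overlap, although the difference between knockout and wild type was only -0.33, and a probe outside the deleted part would not report the deletion. Over the arrays, Epcam, an epithelial adhesion protein, was at 8.69 to 9.36, and Cd80, named in the description of the cells, was at 6.99 to 8.08. All 16 markers of the epithelial list were measured, and only Aire passed the test, in knockdown against wild type and in knockdown against knockout. Aire, the factor that drives self-antigen expression in these cells, was at 11.25 to 11.50 in the knockdown, 9.71 to 9.86 in the knockout and 9.60 to 10.04 in wild type. Knockout replicate 7 and wild type replicate 1 stood apart through narrower value distributions, with interquartile ranges of 2.37 and 2.20 against 2.53 to 2.80 on the other arrays. Of the 53 interferon-response genes, 44 had their lowest wild-type value on replicate 1, as did 70% of all genes above the median level. The lowest value of all 9 arrays lay on wild type replicate 1 for 23 of the 53, where 28.9% of all genes had theirs. It lay on knockout replicate 7 for 16 of the 53, where 13.6% of all genes had theirs.

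Promoter sequence is shown for 9 genes on which the results turn, from the OAS, IFIT, IFITM, GBP and IRG families. Each line gives the 170 bases before the annotated transcription start, 5′ to 3′ on the gene's own strand, from RefSeq on build GRCm38.p6, whose mouse is not of the Balb/c strain. Capitals mark matches to the ISRE core, read here as GAAA followed after any 2 bases by GAAA, on either strand, with overlapping matches run together.
Oas1a (chr5:120907526-120907695, minus strand): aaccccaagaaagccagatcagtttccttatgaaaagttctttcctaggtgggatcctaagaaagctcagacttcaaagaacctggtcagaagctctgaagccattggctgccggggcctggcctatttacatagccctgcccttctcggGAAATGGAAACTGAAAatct
Oas1g (chr5:120887614-120887783, minus strand): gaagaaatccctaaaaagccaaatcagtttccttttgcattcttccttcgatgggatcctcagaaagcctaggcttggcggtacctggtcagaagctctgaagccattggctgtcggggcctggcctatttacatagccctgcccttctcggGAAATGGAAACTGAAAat
Oas1f (chr5:120847197-120847366, plus strand): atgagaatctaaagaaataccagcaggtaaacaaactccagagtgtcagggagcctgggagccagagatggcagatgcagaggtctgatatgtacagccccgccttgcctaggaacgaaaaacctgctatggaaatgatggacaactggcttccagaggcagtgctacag
Oas1h (chr5:120861252-120861421, plus strand): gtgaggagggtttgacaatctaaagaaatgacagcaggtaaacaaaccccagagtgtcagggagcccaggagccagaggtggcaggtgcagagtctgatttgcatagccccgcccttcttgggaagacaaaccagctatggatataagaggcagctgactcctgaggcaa
Ifit3 (chr19:34583359-34583528, plus strand): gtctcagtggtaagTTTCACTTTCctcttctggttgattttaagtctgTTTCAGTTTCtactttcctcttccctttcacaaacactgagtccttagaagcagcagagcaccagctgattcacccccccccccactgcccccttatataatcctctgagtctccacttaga
Ifitm1 (chr7:140967906-140968075, plus strand): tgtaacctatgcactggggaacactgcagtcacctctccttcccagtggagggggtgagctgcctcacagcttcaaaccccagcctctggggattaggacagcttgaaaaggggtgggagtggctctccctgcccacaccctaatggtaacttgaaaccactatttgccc
Gbp2 (chr3:142620493-142620662, plus strand): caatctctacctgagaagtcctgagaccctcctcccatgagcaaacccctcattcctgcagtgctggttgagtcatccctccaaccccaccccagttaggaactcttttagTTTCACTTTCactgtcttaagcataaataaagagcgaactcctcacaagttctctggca
Gbp5 (chr3:142496764-142496933, plus strand): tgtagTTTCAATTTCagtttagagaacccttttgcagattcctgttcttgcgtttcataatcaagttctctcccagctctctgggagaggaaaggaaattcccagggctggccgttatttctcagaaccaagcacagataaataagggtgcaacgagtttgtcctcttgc
Igtp (chr11:58199386-58199555, plus strand): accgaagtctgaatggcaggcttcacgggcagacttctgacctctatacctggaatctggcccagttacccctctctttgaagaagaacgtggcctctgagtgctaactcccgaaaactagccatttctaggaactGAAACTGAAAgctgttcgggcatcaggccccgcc

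Of the 53 genes, 45 had a RefSeq window from 250 bases before to 50 bases after the start. The ISRE core was present on either strand in 22 of these 45 windows (48.89%), against 3.99% of the windows of all 27025 genes. The GAS core TTCNNNGAA was present in 12 of 45 (26.67%), against 9.55% of all genes, and in Ifitm3 a match to it overlapped an ISRE match. All 5 GBP windows and 4 of 8 OAS windows held the ISRE core, but only 1 of 8 IRF windows did. The windows of Oas1a and Oas1g carried the tandem form close to the start, beginning 20 and 18 bases before it, and 82.9% of their aligned upstream bases were identical. Oas1f and Oas1h, whose upstream bases were 73.5% identical to each other, held no match to these letters. A match describes the letters only, and no binding was measured.

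**Figure D1:**
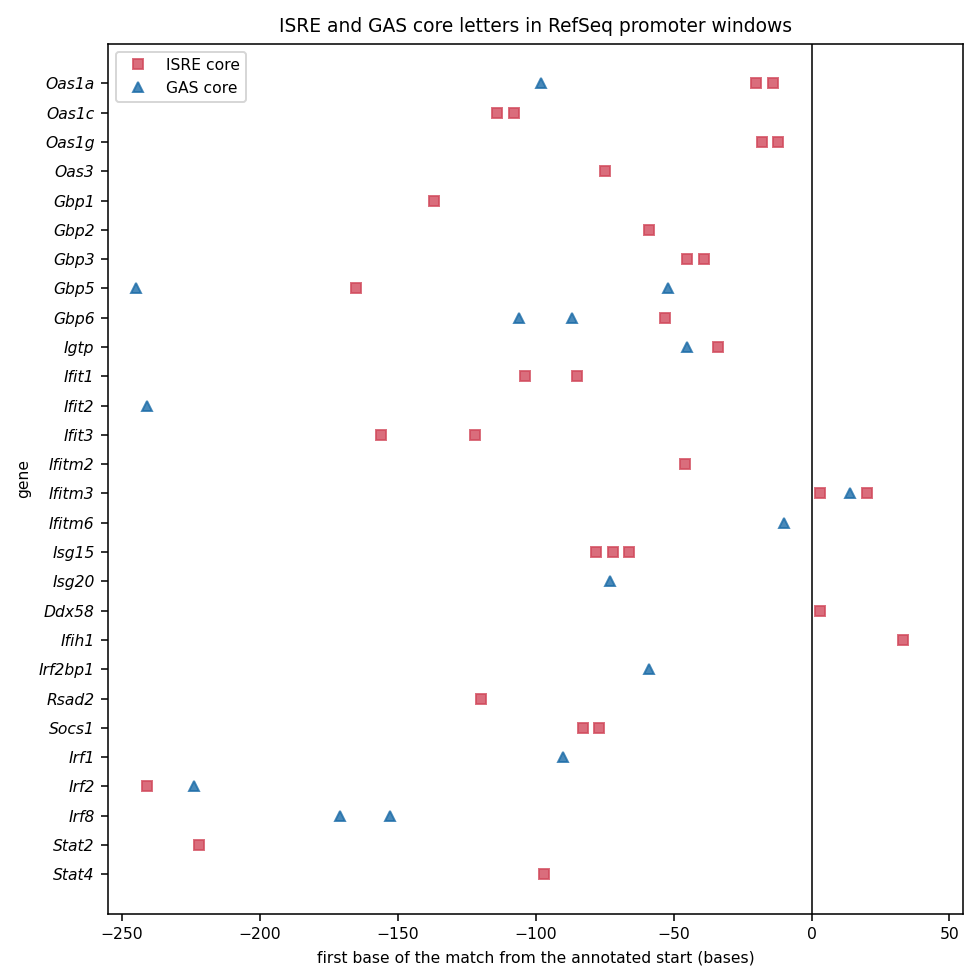
Position of each match to the ISRE core (squares) and the GAS core (triangles), as the first base of the match in bases from the annotated start (x axis), for the 28 interferon-response genes with a match (y axis, by family). The GBP matches to the ISRE core lie upstream of the start in all 5 genes, and Oas1a and Oas1g have theirs within 20 bases of it.

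None of the 53 genes passed an adjusted p of 0.05 in limma in any of the 3 comparisons. The background was also low, since 0.0664% of all genes passed for knockdown against wild type, 0.0459% for knockout against wild type and 0.0408% for knockdown against knockout. At an unadjusted p under 0.05, knockdown against wild type gave 9 higher and 5 lower genes of 53, where 2.86% of all genes were higher and 2.37% lower at that limit. Knockout against wild type gave 7 higher and 5 lower, with a background of 1.75% higher and 1.59% lower. Knockdown against knockout gave 7 higher and 5 lower, with a background of 2.82% higher and 2.22% lower. The lowest adjusted p was 0.0683 for Ifitm1 in knockdown against wild type, 0.410 for Oas1h in knockout against wild type and 0.110 for Oas1g in knockdown against knockout. These RNA levels come from bulk samples, in which fewer cells of a type and less RNA per cell cannot be told apart.

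By mean, 36 of 53 genes were higher in the knockdown than in wild type, where 52.4% of all genes were, and 35 of 53 were higher in the knockout than in wild type, where 51.8% of all genes were. The median difference over the 53 genes was 0.084 for the knockdown (0.0096 over all genes) and 0.086 for the knockout (0.0075 over all genes). Both comparisons share the wild-type arrays, among them replicate 1, on which the 53 genes had a median deviation of -0.24 from their own means. Without that array 27 of 53 genes were higher in the knockdown (median 0.0057) and 25 of 53 in the knockout (median -0.04). Without knockout replicate 7 as well, 35 of 53 were higher in the knockout. Between knockdown and knockout, which share no arrays, 27 genes were higher and 26 lower (50.2% of all genes were higher), with a median difference of 0.013. Without knockout replicate 7 this became 23 higher and 30 lower, with a median of -0.048. Values of the groups did not overlap for 14 higher and 6 lower genes in knockdown against wild type, where 4.8% of all genes were higher and 3.46% lower without overlap. In knockout against wild type this held for 6 higher and 3 lower genes (2.54% and 2.29% of all genes), and in knockdown against knockout for 8 higher and 4 lower (5.38% and 4.22%).

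**Figure D2:**
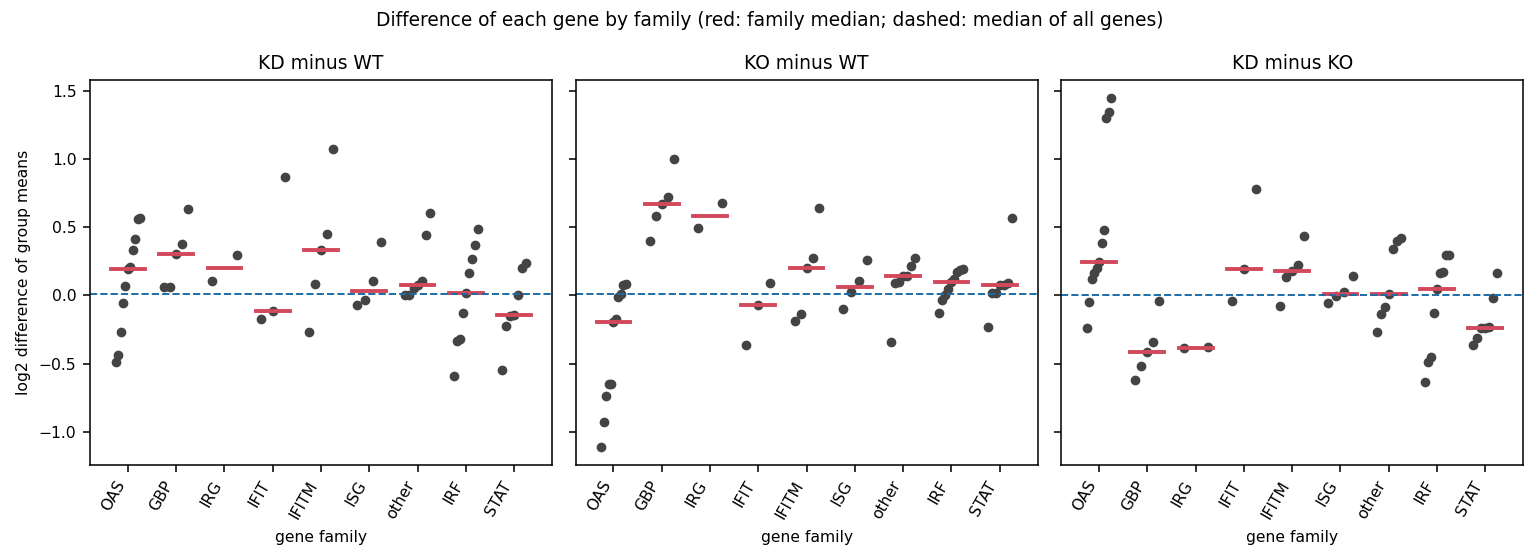
Log2 difference of group means (y axis) for each interferon-response gene (points), by family (x axis), with the family median (red) and the median of all 19593 genes (dashed), in knockdown minus wild type, knockout minus wild type and knockdown minus knockout. GBP and IRG genes all lie above 0 in knockout minus wild type and below 0 in knockdown minus knockout, while 3 OAS genes lie above 1 in knockdown minus knockout.

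At the start of the pathway, 21 interferon genes were measured, and their array means stayed between 2.81 and 3.13, below the median gene level of 4.52. None of them passed the test, and only Ifng, which encodes type II interferon, had an unadjusted p under 0.05. Ifng was at 2.63, 2.91 and 2.90 in the knockdown, 2.71, 2.58 and 2.68 in the knockout and 3.36, 2.90 and 3.34 in wild type. Its values in the knockout all lay below those of wild type. The 9 receptor chains and Janus kinases differed little, with none at an unadjusted p under 0.05 in any comparison and with differences from -0.11 to 0.27 in knockout against wild type. Their smallest p-values in knockout against wild type belonged to Ifnar2, a type I receptor chain (0.27, SE 0.30, or 0.02 without wild type replicate 1), and Ifnlr1, the type III receptor chain (-0.11, SE 0.12). Among 13 measured sensors and adaptors of nucleic acid recognition none passed either, and the smallest p-values in knockdown against wild type belonged to Dhx58, a relative of RIG-I (0.38, SE 0.21), and Tlr7, a receptor for single-stranded RNA (-0.28, SE 0.17). These differences were 0.15 and -0.13 without wild type replicate 1. Among 12 negative regulators none passed, and Socs3, an inhibitor of cytokine signalling, had 0.21 (SE 0.13) in knockdown against wild type.

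Among the transcription factors, Stat2, a subunit of the complex that type I interferons assemble, was at 6.53, 6.31 and 6.49 in the knockdown, 5.60, 6.47 and 6.79 in the knockout and 6.09, 6.31 and 6.23 in wild type. The lowest knockdown array and the highest wild-type array were both at 6.31 after rounding, the knockdown above by less than the rounding, and the knockout arrays enclosed both groups, with a knockdown difference from wild type of 0.23 (SE 0.25). Most other STAT genes serve mainly cytokine receptors, and of these Stat4, which signals for interleukin 12 in lymphocytes, was at 5.27, 4.87 and 5.34 in the knockdown against 5.37, 5.87 and 5.87 in wild type. Its ranges did not overlap, with a difference of -0.55 (SE 0.25, limma adjusted p = 0.944).

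Irf9, the DNA-binding subunit of the type I complex, was at 6.52, 6.23 and 6.22 in the knockdown, 5.98, 5.90 and 6.18 in the knockout and 5.39, 6.08 and 6.04 in wild type. Its knockdown values lay above all others, and the difference from wild type was 0.48 (SE 0.19), or 0.26 without wild type replicate 1. Irf7, the factor that amplifies type I interferon production, was at 7.21, 6.96 and 7.10 in the knockdown, 6.78, 6.81 and 7.17 in the knockout and 6.61, 6.61 and 6.96 in wild type, with a knockdown difference of 0.37 (SE 0.15) and a lowest knockdown array just above the highest wild-type array, both at 6.96 after rounding. The limma adjusted p was 0.839 for Irf9 and 0.851 for Irf7. Irf1, a factor induced by type II interferon, was instead lowest in the knockdown.
Irf1 was at 7.25, 7.16 and 7.12 in the knockdown, 7.36, 7.83 and 7.69 in the knockout and 7.63, 7.45 and 7.45 in wild type. The knockdown arrays were the lowest 3 of 9, with differences of -0.33 (SE 0.13) from wild type and -0.45 (SE 0.13) from the knockout. Neither difference passed in the reported fit (limma adjusted p = 0.851 and 0.557). With array weights in limma the adjusted p for knockdown against knockout was 0.0194, and Irf1 passed in no other setting.

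Irf4 and Irf8, which are best known from lymphocytes, dendritic cells and macrophages, were also low in the knockdown. Irf8 was at 7.0, 7.06 and 7.17 in the knockdown, 7.58, 7.60 and 7.51 in the knockout and 6.96, 7.62 and 7.60 in wild type. The knockdown lay below the knockout without overlap, with a difference of -0.49 (SE 0.17, limma adjusted p = 0.735), and overlapped wild type only through replicate 1. Irf4 was at 5.49, 4.92 and 5.27 in the knockdown, 5.29, 6.13 and 6.17 in the knockout and 5.61, 6.16 and 5.69 in wild type, with a knockdown difference from wild type of -0.59 (SE 0.26, limma adjusted p = 0.925). Beside these, 17 of 19 measured dendritic cell and macrophage markers were lower by mean in knockdown against wild type, where 52.4% of all genes were higher. None of the 19 passed the test. The means of that list were 5.04, 5.05 and 5.16 on the knockdown arrays, 5.17, 5.53 and 5.62 on the knockout arrays and 5.24, 5.32 and 5.32 on the wild-type arrays. Itgax, the dendritic cell integrin, differed by -0.40 (SE 0.14) between knockdown and wild type. The part of such cells in the Irf4 and Irf8 values was not tested.

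**Figure D3:**
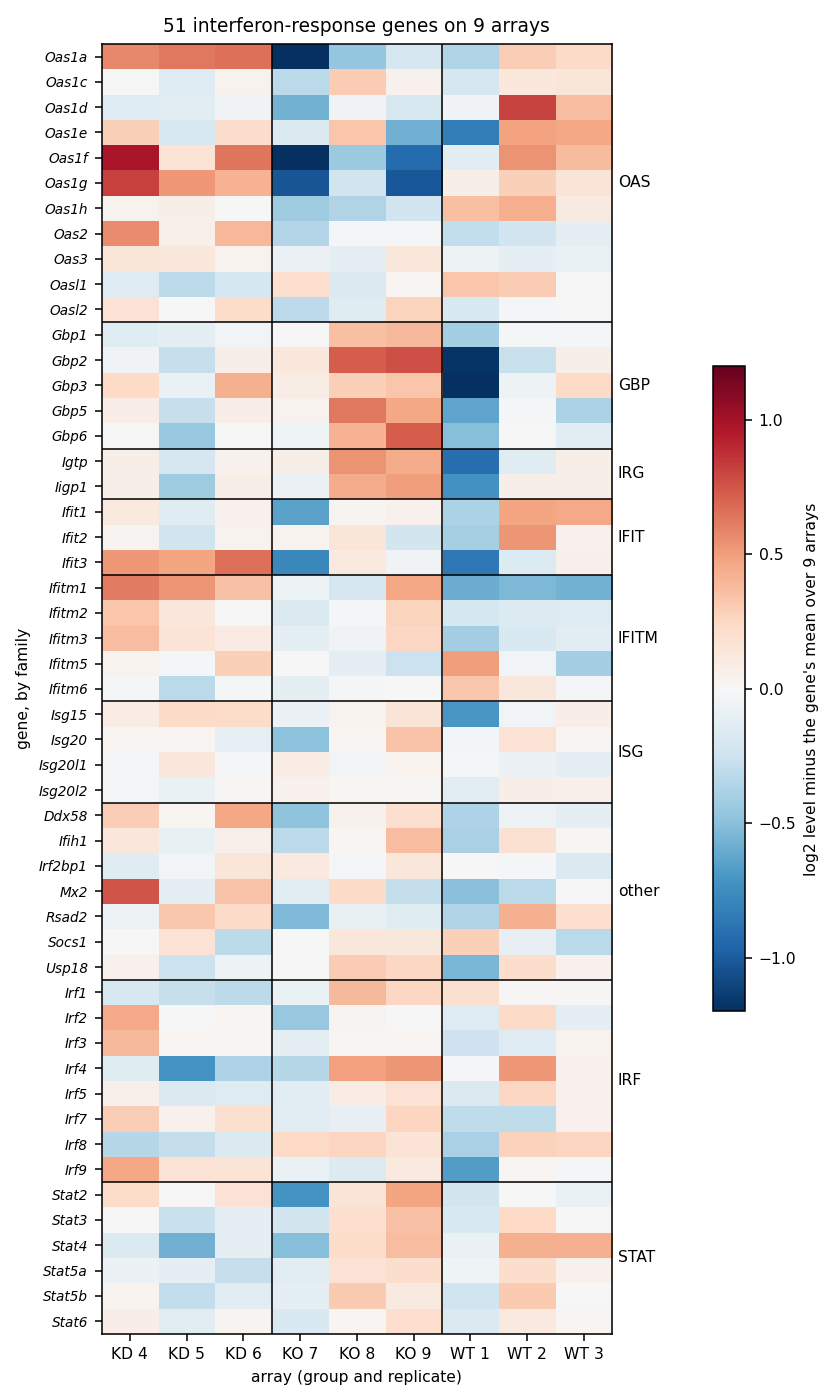
Deviation of each of 51 interferon-response genes (rows, by family) from its own mean over 9 arrays, in log2 units (colour, cut at 1.2), on each knockdown, knockout and wild-type array (columns). Oas1a, Oas1f and Oas1g are high on the 3 knockdown arrays and low on the 3 knockout arrays, and the GBP and IRG rows are low on wild type replicate 1 and high on knockout replicates 8 and 9.

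The widest spread over the arrays was found in Oas1f, Oas1a and Oas1g. Oas1 genes encode oligoadenylate synthetases that make the messenger activating RNase L, or related proteins without that activity. All 7 measured Oas1 genes had lower means in the knockout than in wild type, where 51.8% of all genes had higher means. The median difference of the 7 was -0.65 (-0.86 without wild type replicate 1). Without knockout replicate 7 as well, 6 of 7 were lower and Oas1c differed by 0.04. The knockdown means exceeded those of the knockout in 6 of 7, where they did so in 50.2% of all genes. Oas1f was at 6.57, 5.76 and 6.24 in the knockdown, 4.40, 5.15 and 4.67 in the knockout and 5.46, 6.13 and 5.97 in wild type. Every knockout array lay below every array of the other 2 groups, and knockdown and wild type overlapped. The knockdown exceeded the knockout by 1.45 (95% interval 0.86 to 2.03, a 2.73-fold difference, limma adjusted p = 0.172), and the difference between knockout and wild type was -1.11 (SE 0.26, limma adjusted p = 0.9997).

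Oas1g, an active synthetase gene, had levels of 6.56, 6.26 and 6.15 in the knockdown, 4.71, 5.5 and 4.72 in the knockout and 5.81, 6.02 and 5.89 in wild type. The 3 groups did not overlap at all, in the order knockdown, wild type, knockout from high to low. The knockdown exceeded the knockout by 1.34 (95% interval 0.87 to 1.81, a 2.54-fold difference, limma adjusted p = 0.110). Oas1a, another active synthetase gene whose upstream bases resemble those of Oas1g, was at 5.94, 5.99 and 6.02 in the knockdown, 3.99, 4.90 and 5.16 in the knockout and 5.0, 5.66 and 5.59 in wild type. Its knockdown arrays were the highest 3 of 9, while knockout and wild type overlapped through wild type replicate 1. The knockdown exceeded the knockout by 1.30 (SE 0.28, limma adjusted p = 0.282). The near identity of Oas1 genes leaves it uncertain which of them each probe set reports, and shared probes were not examined.

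Whether these 3 genes passed in knockdown against knockout differed between settings. With array weights in limma the adjusted p was 0.00728 for Oas1f, 0.0113 for Oas1g and 0.0124 for Oas1a, in ranges over all settings of 0.00688 to 0.765, 0.0113 to 0.621 and 0.00771 to 0.875. The difference kept its sign in all settings and did not go below 0.95 for any of the 3. Oas1h, which is not known as an active synthetase, had another order. It was at 3.76, 3.79 and 3.73 in the knockdown, 3.29, 3.36 and 3.49 in the knockout and 4.08, 4.16 and 3.83 in wild type. Its 3 groups did not overlap, with wild type highest, and the difference between knockout and wild type was -0.65 (SE 0.12, 1.57-fold lower, limma adjusted p = 0.410). These levels are below the median gene level of 4.52.

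**Figure D4:**
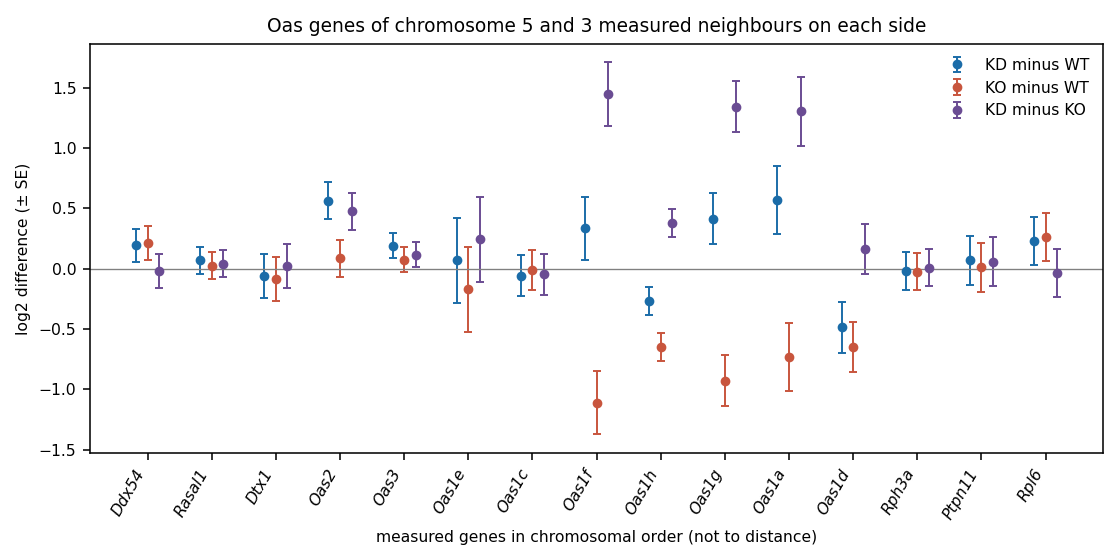
Log2 difference (y axis, with SE) of the 9 measured Oas genes of chromosome 5 and of 3 measured genes on each side (x axis, in chromosomal order and not to distance), for knockdown minus wild type, knockout minus wild type and knockdown minus knockout. The neighbouring genes Oas1f, Oas1h, Oas1g, Oas1a and Oas1d lie between -1.11 and -0.65 in knockout minus wild type, whereas the flanking Dtx1 and Rph3a lie at -0.08 and -0.03.

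In the order given by RefSeq, the 5 Oas genes of this chromosome with the largest differences between knockout and wild type lay next to each other. The run of measured genes was Dtx1, Oas2, Oas3, Oas1e, Oas1c, Oas1f, Oas1h, Oas1g, Oas1a, Oas1d and Rph3a. Knockout minus wild type was -1.11, -0.65, -0.93, -0.74 and -0.65 over the consecutive Oas1f, Oas1h, Oas1g, Oas1a and Oas1d, and -0.01 and -0.17 for Oas1c and Oas1e on one side. Without wild type replicate 1 the difference of Oas1e was -0.60, close to the -0.62 of Oas1h, and that of Oas1c was -0.13. The first genes outside the cluster, Dtx1, a ubiquitin ligase of Notch signalling, and Rph3a, a vesicle protein, differed by -0.08 and -0.03, and by 0.14 and -0.19 without that array. Oas1d, a family member known from oocytes, was at 4.09, 4.12 and 4.2 in the knockdown, 3.68, 4.2 and 4.05 in the knockout and 4.2, 5.06 and 4.62 in wild type. It was low in both groups against wild type and did not share the high knockdown values of Oas1f, Oas1g and Oas1a. Oas1e was unsteady, with 5.2, 4.72 and 5.12 in the knockdown, 4.74, 5.24 and 4.33 in the knockout and 4.08, 5.39 and 5.37 in wild type, and its knockdown difference of 0.07 became -0.36 without wild type replicate 1.

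Of the larger OAS genes, Oas2 was high in the knockdown. This synthetase with duplicated domains was at 5.18, 4.67 and 5.01 in the knockdown, 4.26, 4.59 and 4.59 in the knockout and 4.31, 4.38 and 4.49 in wild type. The knockdown lay above both other groups, by 0.56 (SE 0.15) over wild type and 0.48 (SE 0.15) over the knockout, with limma adjusted p of 0.503 and 0.653. Oas3, the longest of the synthetases, spanned only 5.45 to 5.71 over all arrays. Oasl1, a protein known in mice to limit the translation of Irf7, went the other way.
It was at 6.72, 6.56 and 6.67 in the knockdown, 7.08, 6.70 and 6.90 in the knockout and 7.21, 7.18 and 6.88 in wild type. The knockdown lay below wild type without overlap, with a difference of -0.44 (SE 0.14, limma adjusted p = 0.614).

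**Figure D5:**
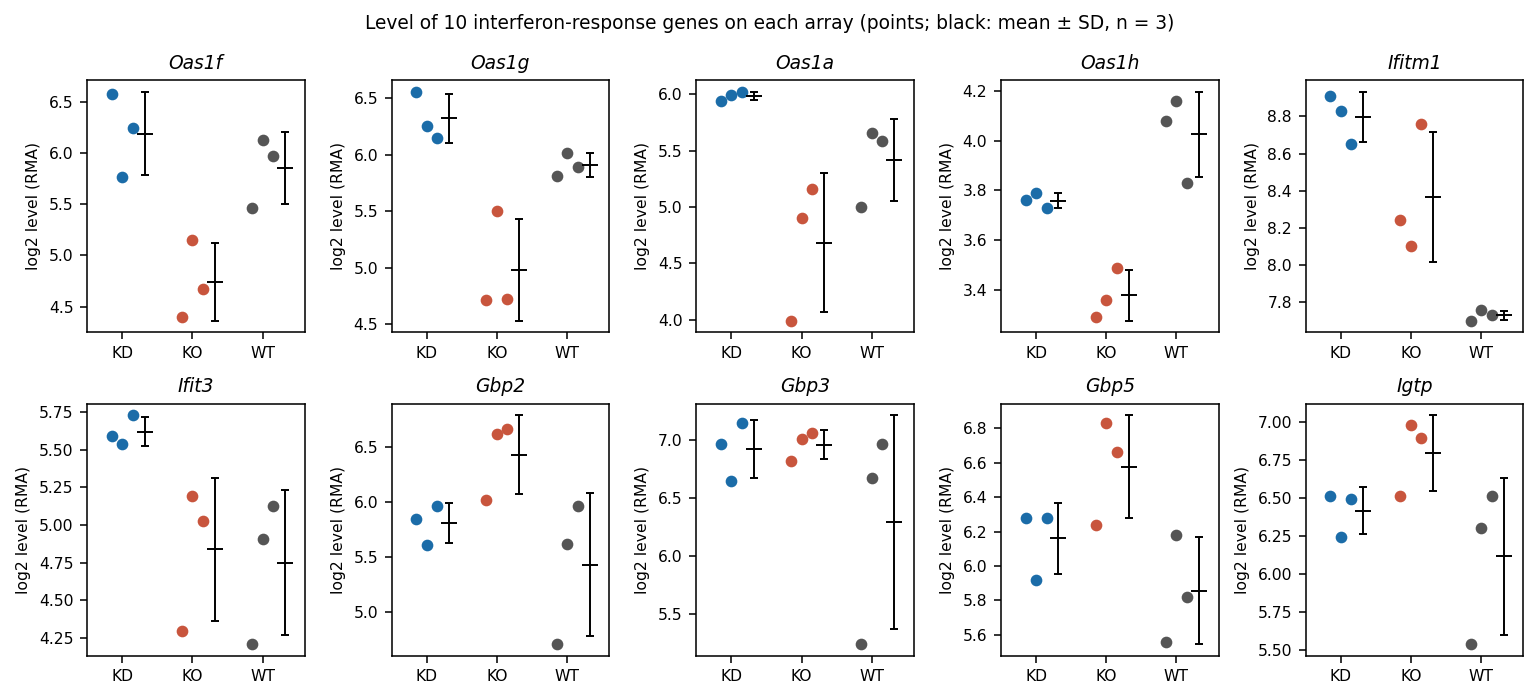
Log2 level (y axis, a scale of its own per gene) of 10 interferon-response genes on the knockdown (KD), knockout (KO) and wild-type (WT) arrays (points), with mean and SD beside them (black, n = 3). Oas1g and Oas1h separate all 3 groups, Ifitm1 is lowest on the 3 wild-type arrays, and Gbp2, Gbp5 and Igtp are highest on knockout replicates 8 and 9.

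Ifitm1, a membrane protein that restricts viral entry, gave the lowest adjusted p of any member. Its main probe set was at 8.91, 8.83 and 8.65 in the knockdown, 8.24, 8.10 and 8.76 in the knockout and 7.70, 7.76 and 7.73 in wild type. The 3 wild-type arrays were the lowest of all 9 and lay close together. The knockdown exceeded wild type by 1.07 (95% interval 0.70 to 1.44, a 2.10-fold difference, limma adjusted p = 0.0683), and the knockout exceeded wild type by 0.64 (SE 0.17, limma adjusted p = 0.9997). The second Ifitm1 probe set gave the same order, with 8.16, 8.06 and 7.86 in the knockdown, 7.46, 7.61 and 7.98 in the knockout and 6.97, 6.96 and 7.09 in wild type. The knockdown difference was 1.06 without wild type replicate 1, so that array did not set it. Ifitm1 passed in 4 alternative settings, with an adjusted p between 0.00736 and 0.454 over all of them.

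Of the neighbouring IFITM genes, Ifitm3 and Ifitm2 pointed the same way with smaller differences. Ifitm6 pointed the other way by mean, but its groups overlapped. Its levels of 3.11 to 3.77 over all arrays were below the median gene level of 4.52. Ifitm3, the best known restriction factor of the family, was at 10.65, 10.44 and 10.38 in the knockdown, 10.16, 10.24 and 10.53 in the knockout and 9.87, 10.10 and 10.15 in wild type. Both groups lay above wild type without overlap, but the lowest knockout array (10.16) only just exceeded the highest wild-type array (10.15). The differences were 0.45 (SE 0.14) for the knockdown and 0.27 (SE 0.14) for the knockout, neither past the threshold. They were 0.36 and 0.18 without wild type replicate 1. Ifitm2 differed by 0.33 (SE 0.14) between knockdown and wild type, also without overlap. Ifitm5, a bone protein, and Ifitm6 differed by 0.08 and -0.27 between knockdown and wild type. Without wild type replicate 1 these values were 0.33 and -0.18, and that of Ifitm2 was 0.32. Outside this cluster the flanking genes Pgghg and B4galnt4 differed by 0.17 and -0.05 between knockdown and wild type, and by -0.02 and 0.03 without that array.

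Of the 3 IFIT genes, whose products bind viral RNA, only Ifit3 separated the groups. It was at 5.59, 5.54 and 5.73 in the knockdown, 4.30, 5.19 and 5.03 in the knockout and 4.21, 4.91 and 5.13 in wild type. The knockdown arrays were the highest 3 of 9, by 0.87 (SE 0.27) over wild type and 0.78 (SE 0.27) over the knockout, with limma adjusted p of 0.600 and 0.715. The difference from wild type was 0.60 without wild type replicate 1, and that from the knockout was 0.51 without knockout replicate 7 as well. Ifit1 and Ifit2 differed by -0.17 and -0.11 between knockdown and wild type, and by -0.45 and -0.34 without wild type replicate 1. The window of Ifit1, like that of Ifit3, held the ISRE core. The near-identical Ifit3b, not among the 53 genes, differed by 0.51, and it is uncertain how far the probes tell the pair apart.

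The GBP and IRG GTPases shared a direction in the knockout. All 7 had higher means in the knockout than in wild type, where 51.8% of all genes did. The differences were 0.40 to 1.0, with a median of 0.67. Of the 7, 5 were higher at an unadjusted limma p under 0.05, where 1.75% of all genes were. In knockdown against knockout all 7 were lower by mean, where 50.2% of all genes were higher, with a median difference of -0.39. Against wild type the knockdown means were also higher in 7 of 7, where 52.4% of all genes were. The median of the 7 was 0.30, but none had an unadjusted p under 0.05. Without wild type replicate 1 the knockout means were higher in 7 of 7, with a median of 0.38, and the knockdown means in 4 of 7, with a median of 0.0057. None of the 7 passed the adjusted threshold in any comparison of the reported fit.

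Gbp2, a GTPase strongly induced by type II interferon, was at 5.85, 5.61 and 5.96 in the knockdown, 6.02, 6.62 and 6.66 in the knockout and 4.71, 5.62 and 5.96 in wild type. The knockout arrays were the highest 3 of 9, and wild type replicate 1 lay far below the rest. The knockout exceeded wild type by 1.0 (95% interval 0.33 to 1.67), and by 0.64 without that replicate, whereas the knockdown difference of 0.38 became 0.02 without it. Gbp5, which promotes inflammasome assembly, was at 6.28, 5.92 and 6.28 in the knockdown, 6.24, 6.83 and 6.66 in the knockout and 5.56, 6.18 and 5.82 in wild type. Its knockout values lay above wild type without overlap, by 0.72 (SE 0.20), and by 0.57 without wild type replicate 1. With array weights its limma adjusted p was 0.0460, in a range over all settings from that value to 1.0.

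Gbp3 depended most on a single array. It was at 6.97, 6.65 and 7.15 in the knockdown, 6.82, 7.01 and 7.06 in the knockout and 5.24, 6.67 and 6.97 in wild type, so that only wild type replicate 1 was low. The knockout difference of 0.67 became 0.14 without that array, and the knockdown difference of 0.63 became 0.10. Igtp, an immunity-related GTPase also known as Irgm3, was at 6.51, 6.24 and 6.49 in the knockdown, 6.51, 6.98 and 6.89 in the knockout and 5.54, 6.30 and 6.51 in wild type. Its knockout difference of 0.68 (SE 0.24) was 0.38 without wild type replicate 1, and its knockdown difference of 0.30 became 0.0057. Over the 7 GTPases the median deviation from each gene's own mean was 0.44 and 0.46 on knockout replicates 8 and 9, 0.05 on knockout replicate 7 and -0.73 on wild type replicate 1. On the other arrays it lay between -0.28 and 0.07. The high values of the knockout thus lay on replicates 8 and 9.

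Thymocyte markers were highest on the same arrays. Their means were 4.68, 4.61 and 4.83 in the knockdown, 4.71, 5.59 and 5.28 on knockout replicates 7, 8 and 9 and 4.82, 4.60 and 4.85 in wild type. Of 16 measured thymocyte markers, 14 had higher means in the knockout than in wild type (51.8% of all genes did), with a median difference of 0.43. At an unadjusted limma p under 0.05, 6 were higher (1.75% of all genes were), and none passed the adjusted test. The dendritic cell and macrophage list described above was also highest on knockout replicates 8 and 9, at 5.53 and 5.62, and 15 of its 19 markers had higher means in the knockout than in wild type (median 0.11), or 11 of 19 without wild type replicate 1. The natural killer cell list, with 9 of 10 markers measured, spanned 3.18 to 3.21 in the knockdown, 3.34 to 3.43 in the knockout and 3.22 to 3.27 in wild type. Plasmacytoid dendritic cell markers, all 9 measured, spanned 5.70 to 5.89 in the knockdown, 5.64 to 6.25 in the knockout and 5.63 to 5.86 in wild type. The B cell list (7 of 8 measured) had 2 higher and 5 lower means in knockout against wild type, and the stromal list (12 of 12) had 8 higher and 4 lower, with no gene of either list past the test in any comparison. The part of such cells in the GBP and IRG values was not tested.

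The other members showed smaller separations. Mx2, a dynamin-like antiviral GTPase, was at 4.36, 3.5 and 3.95 in the knockdown, 3.48, 3.83 and 3.32 in the knockout and 3.10, 3.28 and 3.61 in wild type, with overlap between all groups and a knockdown difference of 0.61 (SE 0.23). Ddx58, which encodes the RNA sensor RIG-I, was at 6.44, 6.16 and 6.60 in the knockdown, 5.66, 6.19 and 6.33 in the knockout and 5.77, 6.08 and 6.03 in wild type. Its knockdown values lay above wild type without overlap, by 0.44 (SE 0.19, limma adjusted p = 0.923). Isg15, a ubiquitin-like modifier, was at 3.74, 3.88 and 3.87 in the knockdown, 3.58, 3.69 and 3.81 in the knockout and 2.95, 3.62 and 3.73 in wild type. Its knockdown and wild-type values barely missed each other, and the difference was 0.39 (SE 0.19), or 0.15 without wild type replicate 1. Rsad2, which encodes viperin, lay in the knockdown (5.38, 5.76 and 5.67) above the knockout (4.91, 5.35 and 5.29) without overlap, by 0.42 (SE 0.21). Usp18, the protease that removes ISG15, Ifih1, the sensor MDA5, and Socs1, an inhibitor of Janus kinases, had differences between knockout and wild type of 0.27, 0.09 and 0.14, with overlapping arrays in all 3 comparisons. These became 0.04, -0.07 and 0.31 without wild type replicate 1, so that the sign of Ifih1 turned.

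A list of 52 further interferon-induced genes, of which 45 were measured, served as a comparison. None of the 45 passed the test in any comparison. In knockdown against wild type, 35 of 45 had higher means (median 0.13), where 52.4% of all genes did, and in knockout against wild type 38 of 45 did (median 0.19), where 51.8% of all genes did. Without wild type replicate 1 the counts were 31 (median 0.05) and 32 (median 0.08). Knockdown against knockout gave 21 higher and 24 lower, and 11 higher and 34 lower without knockout replicate 7 as well. Cxcl9, a chemokine induced by type II interferon, was at 8.27, 7.90 and 8.14 in the knockdown, 8.30, 8.75 and 9.11 in the knockout and 7.63, 8.16 and 7.92 in wild type. Like Gbp2 and Gbp5, it had its highest values on knockout replicates 8 and 9. Bst2, the tetherin gene, was at 6.17, 6.43 and 6.00 in the knockdown, 5.98, 5.94 and 5.98 in the knockout and 5.46, 5.58 and 5.98 in wild type, and its knockdown values were the highest 3 of 9.

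The presence of the ISRE core can be set beside the differences as a description. In knockdown against wild type, 19 of the 22 genes with the core had higher means, with a median difference of 0.27, and 10 of the 23 genes without it did, with a median of -0.07. Without wild type replicate 1 the counts were 15 of 22 and 9 of 23, with medians of 0.13 and -0.12. In knockout against wild type 15 of 22 and 15 of 23 had higher means, and without that array 13 of 22 and 7 of 23. Without knockout replicate 7 as well, these counts were 16 of 22 and 14 of 23. In knockdown against knockout 13 of 22 and 9 of 23 did, with medians of 0.13 and -0.04, and without both arrays 10 of 22 and 9 of 23, with medians of -0.07 and -0.07. Genes without the core still included Oas1f and Ifitm1, which had the largest differences of all 53 genes in knockdown against knockout and in knockdown against wild type.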

How the data were processed

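RNA from CD80-bearing medullary thymic epithelial cells was hybridised to 9 single-colour arrays, 3 per group, with groups taken from the sample titles. The deposited log2 values were made by the authors with RMA, per the submitters' processing notes, and a second deposited copy of them was identical on all arrays. The authors also deposited linear intensity values made with RMA and a q-value in percent (a score that reaches 114), per the file headers, both left untested. The q-value does not state its groups, and in the authors' deposited table its lowest value among the members was 19.0 for Ifitm1. For the array type, software version and annotation release, the sources used here give nothing.

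Symbols were matched to RefSeq names to join the probe sets of a gene, but the members are named here by their deposited symbols. Gbp1, for example, is Gbp2b in RefSeq. The probe set with the highest mean was kept for each of 19593 genes, and 14016 probe sets without a symbol were left out. Differences were tested by fitting 3 group means with no covariate and no filter (limma 3.58.1, functions lmFit and eBayes, under R 4.3.3), with Benjamini-Hochberg adjustment and a threshold of 0.05. The procedure was tested on simulated data with independent random spread for each gene. Those data held no array with a narrower distribution, as wild type replicate 1 and knockout replicate 7 have, so they do not cover that feature. With 3 arrays against 3, an exact permutation test cannot go below 0.1, so none was used. The number of arrays limits the precision. Motifs were searched as exact letters on both strands.

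Genes with array values and statistics in the text were the signalling factors Stat2, Irf1, Irf7 and Irf9, the markers Gbp2 and Oas1h, the 3 members with the smallest p per comparison and direction and the 10 with the largest SD over the arrays. For the lists of other genes the rule was those past the threshold or the 2 with the smallest p. Not every such gene is given, and several lists are described without single genes. Epcam and Cd80 were given to describe the cells, outside this rule. Array values of Stat4, Ddx58, Isg15, Mx2 and Rsad2 were given after they had been seen. Single values of 2 members are not reported here. The members and lists were chosen with earlier results of these data known.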

Additional observations from a re-analysis of the deposited data

How the results depend on the processing

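The counts of genes past the threshold differed widely between settings. Knockdown against wild type called 13 of all genes in the reported fit. It called 48 after a repeated quantile normalization, 23 with each array centred on its median, 24 with only genes above the median level, 322 with array weights, 2 with only these groups in the fit, 51 without knockout replicate 7 and wild type replicate 1, and 134 with the interquartile range as a covariate. Knockout against wild type called 9, and 61 with array weights, 4 with only these groups and 29 with the covariate. Knockdown against knockout called 8, and 38 after quantile normalization, 313 with array weights, 18 over all probe sets, 66 without knockout replicate 7 and wild type replicate 1 and 155 with the covariate. Leaving out each array in turn gave 5 to 48, 6 to 13 and 5 to 38 genes in these 3 comparisons.

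None of the 53 interferon-response genes was called in the reported fits. Knockdown against wild type called 1 with only genes above the median level, 3 with array weights, 3 with the covariate and 0 to 1 with each array left out. Those called were Ifitm1, Irf8, Oas2, Oas1d and Ifit3. Knockout against wild type called 2 with array weights and 2 with the covariate, from among Oas1f, Oas1d and Gbp5. Knockdown against knockout called 2 after quantile normalization, 6 with array weights, 1 without those 2 arrays, 4 with the covariate and 0 to 1 with each array left out. Here the called genes were Oas1f, Oas1g, Oas1a, Irf1, Irf8, Gbp1 (Gbp2b in RefSeq) and Ifit3. The cause was not tested. Array weights were lowest for knockout replicate 7 and wild type replicate 1. No called value changed sign, but 8 of 54 differences of named genes, none of them called, did so in at least 1 setting. They were those of Oas1e in knockdown against wild type, of Oas1e, Ifit3, Irf4, Irf9 and Stat2 in knockout against wild type and of Gbp3 and Stat2 in knockdown against knockout. An intensity trend in the variance moved no count by over 1.5 times.

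No paired analysis was possible because the groups share no replicate numbers. Signal over background is not given in the deposited tables, so genes at low levels, such as Oas1h, Ifitm6 and Ifng, cannot be separated from background here.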
